A study of Mus musculus with 6 samples.

Results

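The 10 genes described here encode enzymes that make ceramide, convert it into other sphingolipids or break it down: Sptlc1, Sptlc2, Cers2, Cers4, Cers5, Cers6, Degs1, Ugcg, Sgms1 and Asah1. They were chosen by name, with results of these arrays already known, and were read through the symbols of the array annotation as 25 of the 45101 probe sets and 10 of 18193 genes with a symbol of their own. Expression was measured in splenic B cells of 3 Crebbp-deleted mice (CBPΔ/Δ x EµBcl2) and 3 Crebbp-floxed mice (CBPF/F x EµBcl2), 1 Affymetrix array per mouse. Both groups carried the Eµ-driven Bcl2 transgene, which is active in B cells, so there was no group without it. The floxed mice kept a Crebbp gene flanked by recombination sites. The recombinase that removed Crebbp, the age of the mice and their sex were not given in the sources used here. B cells were enriched from thawed spleen cells by removing cells that carry CD43.

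Crebbp encodes CBP, a histone acetyltransferase and transcriptional coactivator that was first found through its binding to CREB. Sphingolipid synthesis begins in the endoplasmic reticulum, where serine palmitoyltransferase condenses serine with palmitoyl-CoA. The product is reduced, joined to a fatty acid by a ceramide synthase and desaturated to ceramide. Ceramide synthases differ in the length of the fatty acid they attach. In the Golgi, ceramide becomes sphingomyelin or glucosylceramide, the root of most glycosphingolipids, and in the lysosome ceramidases return it to sphingosine. Sphingomyelin and glycosphingolipids are part of the plasma membrane in which the B cell receptor sits, and ceramide itself is known as a signal in stress and cell death.

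Levels are log2 intensities, differences are Crebbp-deleted minus Crebbp-floxed on the log2 scale, and each gene was represented by its probe set with the highest mean. Whether a gene passed the test refers to an adjusted p under 0.05 in limma, a linear model with moderated variances fitted over all 18193 genes (Benjamini-Hochberg adjustment). The 6 arrays had medians from 4.27 to 4.29, and their number limits the precision. The 4 probe sets of Crebbp itself had differences from −0.97 to −0.50, with no overlap between the groups. Over all 45037 probe sets 19.8% had groups that did not overlap, with both directions counted. As a gene, Crebbp did not pass limma's test (difference −0.50, adjusted p = 0.078). In the fit over all probe sets its 4 had limma adjusted p of 0.033, 0.081, 0.0825 and 0.1045. Whether the 4 Crebbp probe sets read the deleted part was not analysed here. Of the B cell markers 7 of 8 were measured, all above the median of all probe sets, 4.29. Xist and Y-linked genes marked deleted samples 1 and 3 and floxed sample 1 as male and the other 3 as female. All 6 samples gave 142 genes past limma's threshold (0.781%; 0.544% higher and 0.236% lower) and 2693 genes (14.8%) with an unadjusted p under 0.05. With floxed sample 1 left out these numbers were 0 and 1990. In bulk RNA, fewer cells of a type and less RNA per cell cannot be told apart, which holds for each difference given here.

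Of the 10 enzymes, Cers4 had the largest difference, and the deleted samples held 45.1% of its floxed level. The first subunit of serine palmitoyltransferase, Sptlc1, stood at 78.4%. The acid ceramidase gene Asah1 was 47.2% higher, with overlapping groups. The other 7 genes had differences between −0.34 and 0.15, each with an interval that includes 0. Cers4 was 1 of 10 members to pass limma's test over all genes (adjusted p = 0.020), where 0.781% of all genes did and 0.236% did so with a lower level. In 3 of the 10, Cers4, Sptlc1 and Sptlc2, the highest deleted sample was under the lowest floxed one, and over all genes 21.2% had groups that did not overlap, 10% with the deleted samples lower and 11.2% with them higher. These values describe the arrays on which the genes were chosen and are no independent evidence. The median difference of the members was −0.03, against 0.01 over all genes tested.

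**Figure D1:**
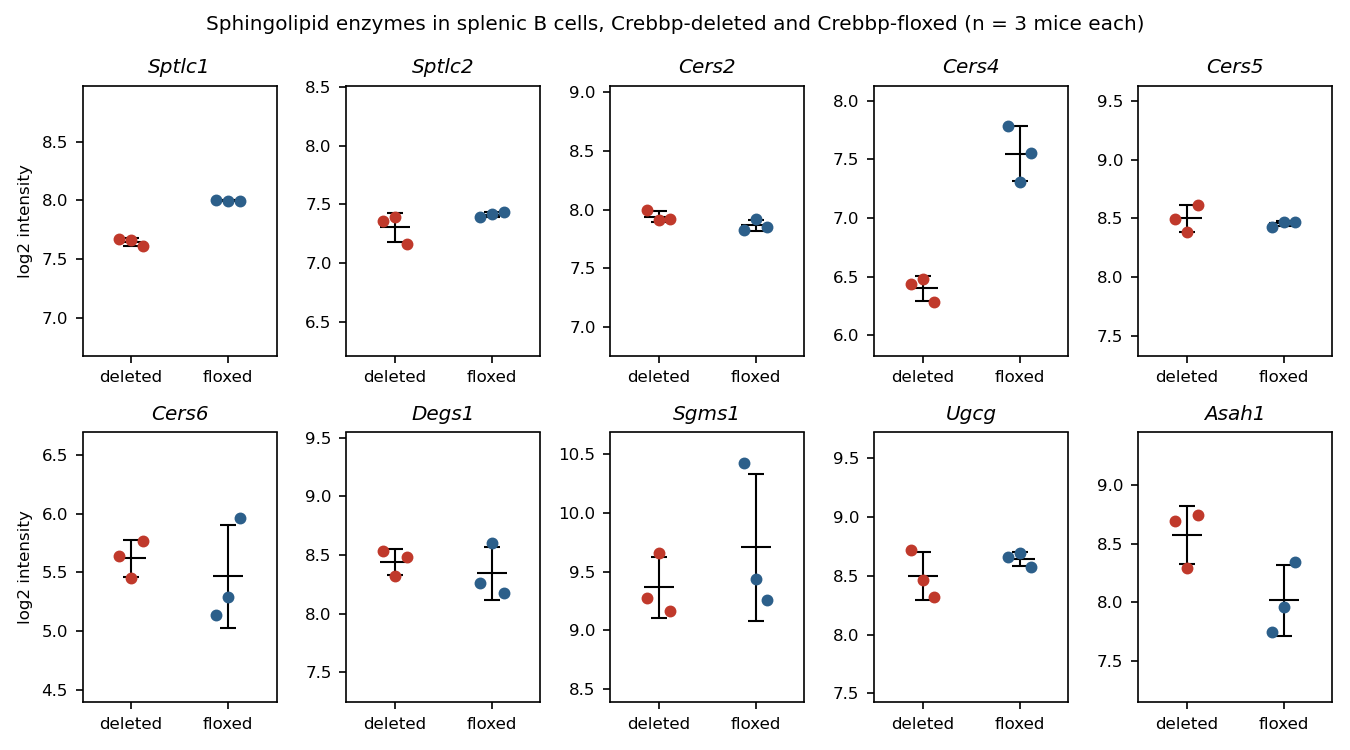
Log2 intensity (vertical axis, the same span of log2 units in every panel) of each enzyme's representative probe set in 3 Crebbp-deleted (left) and 3 Crebbp-floxed (right) samples, with the mean and SD in black. Cers4 and Sptlc1 show separate groups, the groups of Sptlc2 are 0.11 apart in their means, and floxed sample 1 stands above the other samples of Sgms1.

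The start regions of Cers4 and Sptlc1, the members with the largest gaps between groups that do not overlap, are printed with that of Plekha8, a glycolipid transfer gene that rose. Sequences are from RefSeq on GRCm38.p6 and run from 250 bases before to 50 bases after an annotated gene start, written in the gene's direction. For Plekha8 the first of its 2 annotated windows is shown. Capitals mark letters of 5 motifs searched on both strands: the full cAMP response element TGACGTCA bound by CREB, its core TGACG, the GC box GGGCGG, the E box CACGTG and the CCAAT box CCAAT. The full element contains the core.
Cers4 (chr8:4493155-4493454, + strand): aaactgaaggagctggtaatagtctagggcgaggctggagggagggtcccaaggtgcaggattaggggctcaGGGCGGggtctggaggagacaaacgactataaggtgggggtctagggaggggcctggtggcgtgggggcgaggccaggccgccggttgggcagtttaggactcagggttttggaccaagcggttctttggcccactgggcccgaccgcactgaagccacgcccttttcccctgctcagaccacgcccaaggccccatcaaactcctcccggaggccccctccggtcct
Sptlc1 (chr13:53377312-53377611, - strand): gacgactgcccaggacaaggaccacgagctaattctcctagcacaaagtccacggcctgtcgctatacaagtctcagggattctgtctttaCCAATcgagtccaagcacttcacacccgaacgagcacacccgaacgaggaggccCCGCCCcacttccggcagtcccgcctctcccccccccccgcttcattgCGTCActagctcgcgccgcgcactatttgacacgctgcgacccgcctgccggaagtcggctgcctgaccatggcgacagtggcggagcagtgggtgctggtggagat
Plekha8 (chr6:54594861-54595160, + strand): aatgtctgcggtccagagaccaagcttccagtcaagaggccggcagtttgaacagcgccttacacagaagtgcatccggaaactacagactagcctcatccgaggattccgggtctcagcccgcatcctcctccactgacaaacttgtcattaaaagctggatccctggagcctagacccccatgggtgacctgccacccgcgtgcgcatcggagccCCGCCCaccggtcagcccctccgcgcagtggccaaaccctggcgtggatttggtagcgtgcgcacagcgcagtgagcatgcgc
The Cers4 window held 1 GC box, starting 178 bases before the gene start, and no match to the other motifs. The Sptlc1 window held 1 core, starting 57 bases before the gene start, with 1 GC box and 1 CCAAT box. The Plekha8 window held 1 GC box. Windows were found for 9 of the 10 members, 13 in all. The full element was in 0 of the 13 and in 1.79% of all 32851 windows of this length, and the core was in 3 of the 13, those of Sptlc1, Cers6 and Sgms1, and in 20.8% of all windows. GC boxes were in 8 of the 13, E boxes in 3 and CCAAT boxes in 5, against 35.7%, 7.15% and 37.4% of all windows. Most member windows were richer in G and C than the median window (52.7%), ranging from 46% (Sgms1) to 81.3% (Ugcg). Sgms1 alone gave 4 of the 13. No comparison with windows of like base content was made. A match is a description of letters and shows no binding.

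Sptlc1 and Sptlc2 encode the core subunits of serine palmitoyltransferase, the first and rate-limiting enzyme of the pathway. Sptlc1 had levels of 7.68, 7.66 and 7.61 in deleted samples 1 to 3 and 8.007, 7.999 and 7.996 in floxed samples 1 to 3. Every deleted sample lay below every floxed sample, and the floxed samples were almost equal (SD 0.006, n = 3). The difference was −0.35 ± 0.08 (SE), with a 95% interval from −0.54 to −0.16 (limma adjusted p over all genes = 0.107). Of all 25 member probe sets 9 had groups that did not overlap, all with the deleted samples lower. Cers4 and Sptlc1 each gave 3 of these. Over all 45037 probe sets the share was 19.8%, with both directions counted. All 4 Sptlc1 probe sets had negative differences, from −0.35 to −0.20, and in 3 of them the groups did not overlap. The fourth, 1436727_x_at, is of a class that can cross-hybridise, and its mean of 3.68 lies below the median of all probe sets. An alternative setting left out this class together with that of 1436726_s_at, 1 of the 3. Whether the 4 are independent readings of the gene was not analysed here. Sptlc2 had levels of 7.36, 7.39 and 7.16 in deleted samples and 7.39, 7.41 and 7.43 in floxed samples. Its groups were separated only because deleted sample 2 and floxed sample 1 differ in the third decimal, 7.388 against 7.390, and the difference was −0.11 (interval −0.33 to 0.11). Its 3 probe sets were divided, with 1435937_at 0.33 higher in the deleted samples.

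Ceramide synthases attach the fatty acid, and 4 of the family's genes are members. Cers4, whose product is known for long acyl chains of stearic and arachidic type, had levels of 6.44, 6.48 and 6.28 in deleted samples and 7.78, 7.31 and 7.56 in floxed samples. Its highest deleted sample lay well under the lowest floxed sample. In intensities this was 84.7 ± 6.10 in deleted and 189.0 ± 30.6 in floxed samples (SD, n = 3 each), and the log2 difference was −1.15 ± 0.14 (SE), with an interval from −1.46 to −0.83. Of all 18193 genes, 210 had a larger absolute difference. The other Cers4 probe sets, 1417781_at and 1417782_at, had differences of −0.98 and −0.85, with no overlap between the groups in any of the 3. The annotation gives all 3 the same source accession, so they are not independent readings of the gene.

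The B cell markers stood lower in the same samples. Of the 7 measured, 7 had negative differences with a median of −0.31, 5 had groups that did not overlap and 1, the receptor chain gene Cd79a, fell over all genes. Of all genes 10% had such groups with the deleted samples lower, and 0.236% fell. The summed intensity of the 7 ran from 16710 to 18130 in deleted and from 21630 to 26540 in floxed samples, and their part in the Cers4 difference was not tested. Cers4 no longer passed limma's test without deleted sample 1, 2 or 3 or without floxed sample 1 (adjusted p = 0.099, 0.059, 0.064 and 0.071), or with sex as a term (difference −1.19, adjusted p = 0.058). Its difference without each sample in turn ran from −1.27 to −1.03.

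Cers2, the synthase of very long acyl chains, had levels of 7.99, 7.91 and 7.92 in deleted samples and 7.83, 7.92 and 7.86 in floxed samples. The groups overlapped, and the difference of 0.08 had an interval from −0.12 to 0.27, so a fall of the size seen for Cers4 lies outside it. Cers5, a synthase of palmitoyl ceramides, had levels of 8.49, 8.39 and 8.62 in deleted samples against 8.43, 8.47 and 8.47 in floxed samples. Its difference was 0.04 (interval −0.18 to 0.26), and a dim second probe set, 1447308_at, stood 0.15 lower with groups that did not overlap. Cers6, which also makes palmitoyl ceramides, had levels of 5.64, 5.45 and 5.77 in deleted and 5.14, 5.29 and 5.97 in floxed samples. Floxed sample 3 was the highest of the 6, and the difference was 0.15 with a wide interval from −0.35 to 0.65. Whether the Cers4 difference departs from those of its relatives was not tested.

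Degs1 encodes the desaturase that turns dihydroceramide into ceramide. Its levels were 8.53, 8.32 and 8.48 in deleted samples and 8.26, 8.60 and 8.17 in floxed samples. Floxed sample 2 was the highest and the groups overlapped, with a difference of 0.10 (interval −0.21 to 0.41) and a second probe set at −0.02. Ugcg makes glucosylceramide, and its levels were 8.72, 8.46 and 8.32 in deleted samples and 8.66, 8.69 and 8.57 in floxed samples. The difference was −0.145 (interval −0.424 to 0.135), and of its 4 probe sets 2 were lower and 2 higher, the highest difference being 0.39 at 1439863_at.

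Sgms1 encodes the Golgi sphingomyelin synthase. Its representative, 1436499_at, had levels of 9.27, 9.66 and 9.16 in deleted samples and 10.4, 9.43 and 9.26 in floxed samples. Floxed sample 1 stood above the other 5 samples, which overlapped. The difference was −0.34 (interval −1.04 to 0.36), and without floxed sample 1 it was 0.02. Probe sets 1426575_at and 1426576_at showed the same single high sample. The fourth, 1442079_at, did not: it had levels of 6.49, 6.59 and 6.21 in deleted samples and 6.90, 6.96 and 7.05 in floxed samples. There the groups did not overlap and the difference was −0.54 (interval −0.82 to −0.26, limma adjusted p over all 45037 probe sets = 0.122, where 0.411% of probe sets passed). The probe sets of this gene therefore gave different pictures of the same arrays, and which transcripts each reads was not analysed here.

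**Figure D2:**
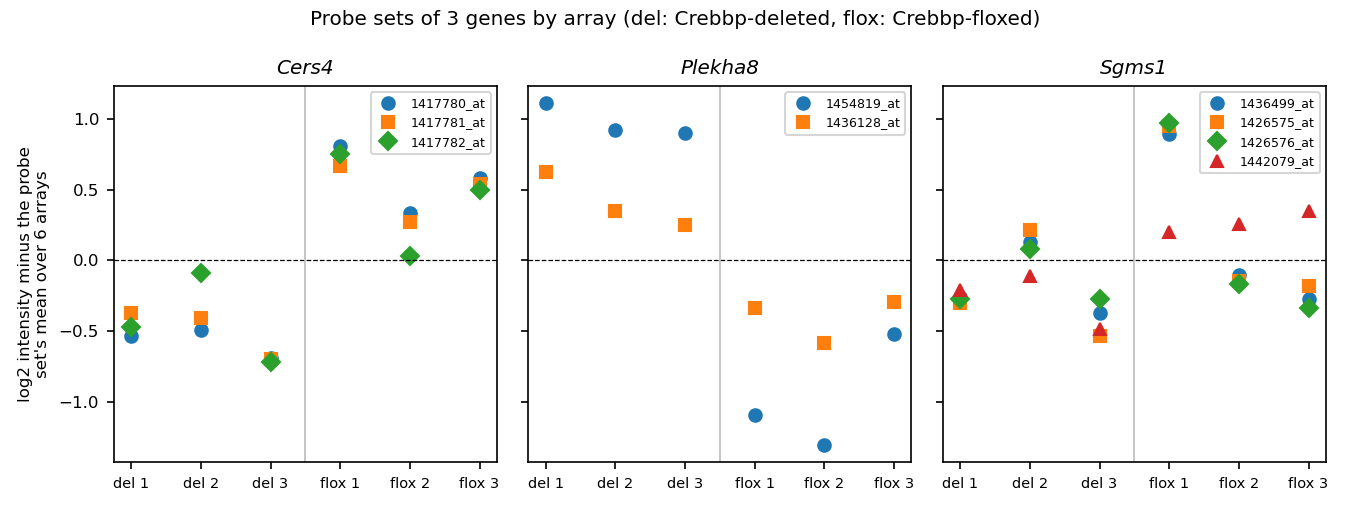
Log2 intensity of each probe set of Cers4, Plekha8 and Sgms1 by array, as the distance from that probe set's own mean over the 6 arrays (vertical axis, log2 units), with Crebbp-deleted arrays on the left of each panel. The probe sets of Cers4 and of Plekha8 move the same way, while 3 Sgms1 probe sets share a high floxed sample 1 that 1442079_at lacks.

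Asah1 encodes acid ceramidase, which splits ceramide in the lysosome. Its single probe set had levels of 8.69, 8.29 and 8.75 in deleted samples and 7.75, 7.96 and 8.35 in floxed samples. Deleted sample 2 lay below floxed sample 3, so the groups overlapped, and the difference was 0.56 ± 0.18 (SE, interval 0.13 to 0.99). Macrophage markers were higher in the same group: all 13 measured had positive differences with a median of 1.24, 4 had groups that did not overlap and 0 passed limma's test over all genes. Their summed intensity ran from 1606 to 3721 in deleted and from 549.7 to 1729 in floxed samples. In the deleted samples the sums and Asah1 had the same order, lowest in sample 2 and highest in sample 3. Floxed samples 2 and 3 also stood in the same order in both. Floxed sample 1 departed, with the highest floxed sum, 1729, and the lowest Asah1 level of all 6 samples. The order of 3 samples a group cannot decide what part macrophages had. The adhesion marker Itgam and the receptor Marco were below the median of all probe sets. Of 9 measured plasma cell markers 9 had positive differences with a median of 1.65. The groups did not overlap in 7, and 1, Jchain, rose over all genes. Tnfrsf17, 1 of the 7, had a mean of 4.15, below the median of all probe sets. The sum of the 9 ran from 12030 to 21000 in deleted and from 4750 to 5559 in floxed samples. To compare with both marker lists, 11.2% of all genes had groups that did not overlap with the deleted samples higher, and 0.544% rose. Removing cells that carry CD43, as was done here, is meant to take out plasma cells and most leukocytes other than resting B cells. The part of these cells in the Asah1 difference was not tested.

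**Figure D3:**
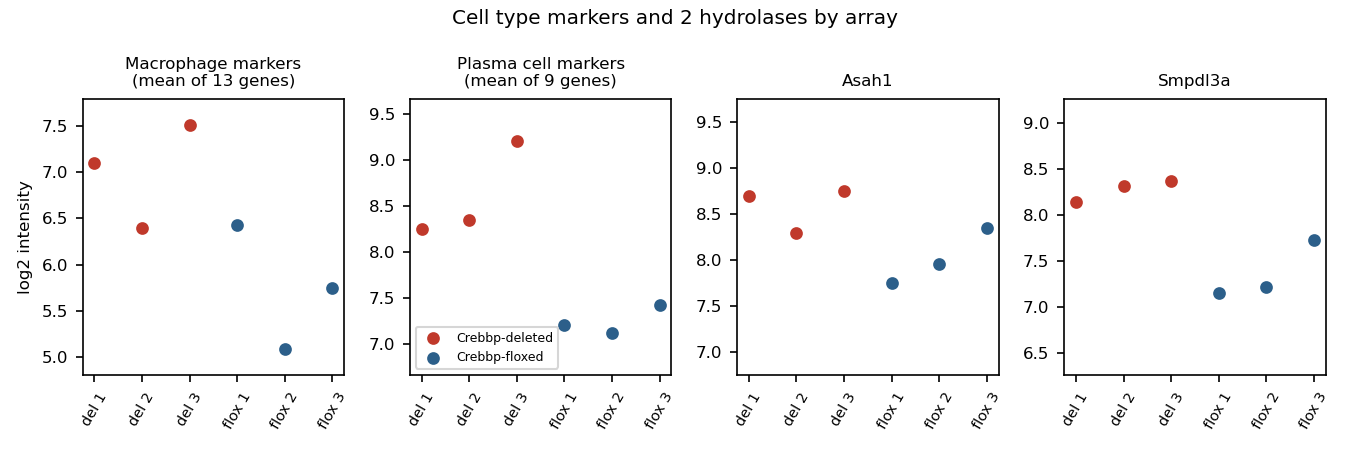
Mean log2 intensity of 13 macrophage and 9 plasma cell markers and the log2 intensity of Asah1 and of Smpdl3a, a relative of acid sphingomyelinase, in each array (vertical axes span the same number of log2 units), Crebbp-deleted arrays first. Deleted sample 2 is the lowest deleted sample for macrophage markers and Asah1, floxed sample 1 is the highest floxed sample for macrophage markers and the lowest for Asah1 and Smpdl3a, and Smpdl3a separates the groups.

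**Figure D4:**
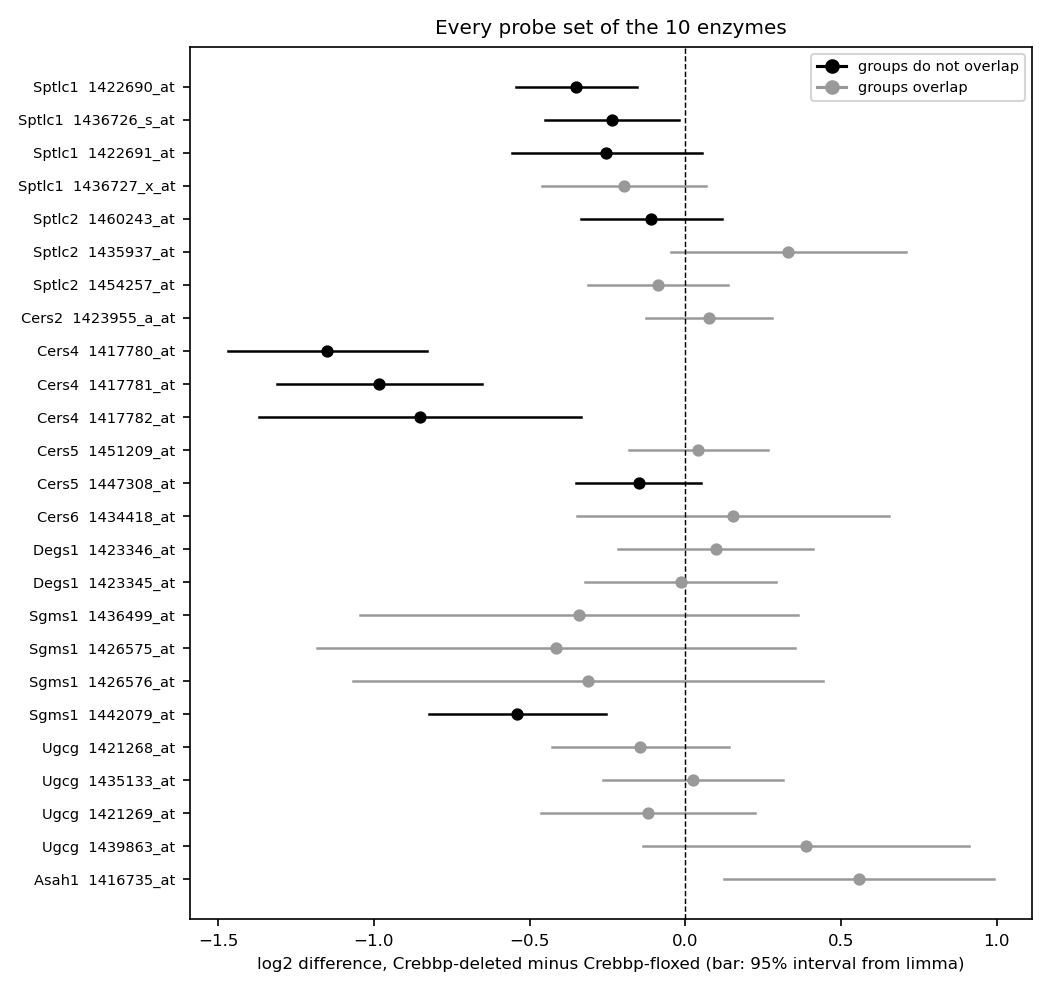
Log2 difference, Crebbp-deleted minus Crebbp-floxed, with its 95% interval from the fit over all probe sets, for each of the 25 probe sets of the 10 enzymes. In 9 probe sets the groups do not overlap (black), against 19.8% of all probe sets with both directions counted. All 9 have negative differences. Cers4 and Sptlc1 each give 3 of these, so they are not 9 separate genes. Of the 25 differences 17 are negative, while the representatives of the 10 genes have 5 positive and 5 negative differences.

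Other genes of sphingolipid metabolism were read from lists of 89 symbols, of which 83 were measured. Past limma's test over all genes 1 rose, where 0.544% of all genes did, and 0 fell, where 0.236% did. An unadjusted p under 0.05 was found in 13 of the 83, and in 14.8% of all genes. Positive differences numbered 51 and negative ones 32, with a median of 0.08. The groups did not overlap in 11 genes that stood higher and 12 that stood lower, against 11.2% and 10% of all genes.

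The gene that rose was Plekha8, which encodes FAPP2, a protein that carries glucosylceramide from the early Golgi towards glycosphingolipid synthesis. Probe set 1454819_at had levels of 6.50, 6.31 and 6.29 in deleted samples and 4.29, 4.08 and 4.87 in floxed samples. The groups lay far apart, with a difference of 1.95 ± 0.20 (SE, limma adjusted p = 0.012), a 3.87-fold rise. The floxed mean of 4.42 is near the median of all probe sets and no detection call was used, so the size of the fold is uncertain. The dimmer 1436128_at also stood higher, by 0.82, and all deleted samples lay above all floxed ones. The call was lost without deleted sample 1 or floxed sample 1 (adjusted p = 0.075 and 0.071) and held with sex as a term (difference 1.97, adjusted p = 0.046). The other 8 measured genes of sphingomyelin synthesis, ceramide phosphorylation and transfer did not pass. Among them Vapb, an endoplasmic reticulum anchor of lipid transfer proteins, had a difference of 0.41 (limma adjusted p = 0.160). Its other probe sets had negative differences. The glycolipid transfer protein gene Gltp had a difference of 0.23 and Sgms2, a plasma membrane sphingomyelin synthase, one of 0.18. The mean of Sgms2, 3.22, lies below the median of all probe sets, and its other probe set was lower.

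Of the other 5 measured genes of serine palmitoyltransferase and its regulation none passed limma's test, and 0 had an unadjusted p under 0.05. Kdsr, the reductase of the second step, had a difference of −0.12, with 1 of its 3 probe sets higher. The regulator gene Ormdl1 had one of 0.18 and the small subunit gene Sptssb one of −0.12. The mean of Sptssb, 2.49, lies below the median of all probe sets. Cers3 and Degs2, the remaining measured synthase and desaturase, had differences of 0.13 and 0.27 and means below the median of all probe sets. Ormdl2, Ormdl3 and Cers1 were not analysed here. Of 18 measured genes of fatty acyl supply and elongation 0 passed, 2 had an unadjusted p under 0.05 and both stood lower. These were the acyl-CoA synthetase gene Acsl3 (−0.45, limma adjusted p = 0.176) and Dbi, which encodes an acyl-CoA binding protein (−0.40, limma adjusted p = 0.235), in all of whose 4 probe sets the difference was negative. The elongase gene Elovl3, with a mean below the median of all probe sets, had a difference of 0.18.

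In glycosphingolipid synthesis 0 of 12 measured genes passed limma's test, 4 had an unadjusted p under 0.05, and the groups did not overlap in 5 with the deleted samples lower and in 1, Gal3st1, with them higher. Over all genes these shares were 10% and 11.2%. Of the 12 genes 6 had means below the median of all probe sets, Gal3st1 (4.23) among them. Ugt8a and A4galt, both among the 5, were also below it, with means of 2.72 and 3.33. Their differences were only −0.14 and −0.12. B4galnt1, the GM2 and GD2 synthase, had levels of 9.12, 9.04 and 8.95 in deleted samples and 9.39, 9.40 and 9.47 in floxed samples. The groups were apart and each varied little, with a difference of −0.38 (limma adjusted p = 0.113). B4galt5, a lactosylceramide synthase, had a difference of −0.37 (limma adjusted p = 0.144) and the sulfotransferase gene Gal3st1 one of 0.31 (limma adjusted p = 0.188). Both probe sets of B4galnt1 and of B4galt5 were lower.

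Among genes of breakdown none passed limma's test, and 1 of 5 measured ceramidase genes, 2 of 7 sphingomyelinase genes and 1 of 10 genes of glycosphingolipid breakdown had an unadjusted p under 0.05. Smpdl3a, a relative of acid sphingomyelinase known to cleave nucleotides, came nearest. It had levels of 8.15, 8.32 and 8.37 in deleted samples and 7.16, 7.21 and 7.73 in floxed samples. The groups were apart, with a difference of 0.91 ± 0.16 (SE, limma adjusted p = 0.061), and it passed without floxed sample 3 (1.09, adjusted p = 0.012). Leaving out any of the other 5 samples gave adjusted p from 0.115 to 0.203, and sex as a term gave 0.105. Smpdl3a stood highest in deleted sample 3, which also had the highest macrophage and plasma cell sums. It was lowest in floxed sample 1, which had the highest floxed macrophage sum. Deleted sample 2, with the lowest deleted macrophage sum, lay above deleted sample 1. The order of 3 samples a group cannot decide the part of those cells, which was not tested. Arsa, the arylsulfatase that degrades sulfatide, had levels of 6.10, 5.99 and 6.32 in deleted samples and 6.64, 6.73 and 6.67 in floxed samples. The groups were apart here too (difference −0.54, limma adjusted p = 0.074).

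The neutral ceramidase gene Asah2 had a difference of 0.58 (limma adjusted p = 0.148) at its brightest probe set, while the other two were lower. The ceramidase gene Acer3 and Naaa, a relative of acid ceramidase, had differences of 0.18 and 0.23. Smpd3, a neutral sphingomyelinase, had a difference of −0.52 (limma adjusted p = 0.259), with 2 of 3 probe sets higher, and the mitochondrial Smpd5 one of 0.19. The galactosidase gene Gla had a difference of −0.35 and the non-lysosomal glucosylceramidase gene Gba2 one of 0.24. Of 15 measured genes of sphingosine 1-phosphate metabolism, export and receptors 0 passed and 1 had an unadjusted p under 0.05. It was the lipid phosphatase gene Plpp2, with a difference of −0.39 (limma adjusted p = 0.220). Plpp3 and the receptor gene S1pr5 had differences of 0.39 and 0.27. The mean of S1pr5, 2.87, lies below the median of all probe sets.

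**Figure D5:**
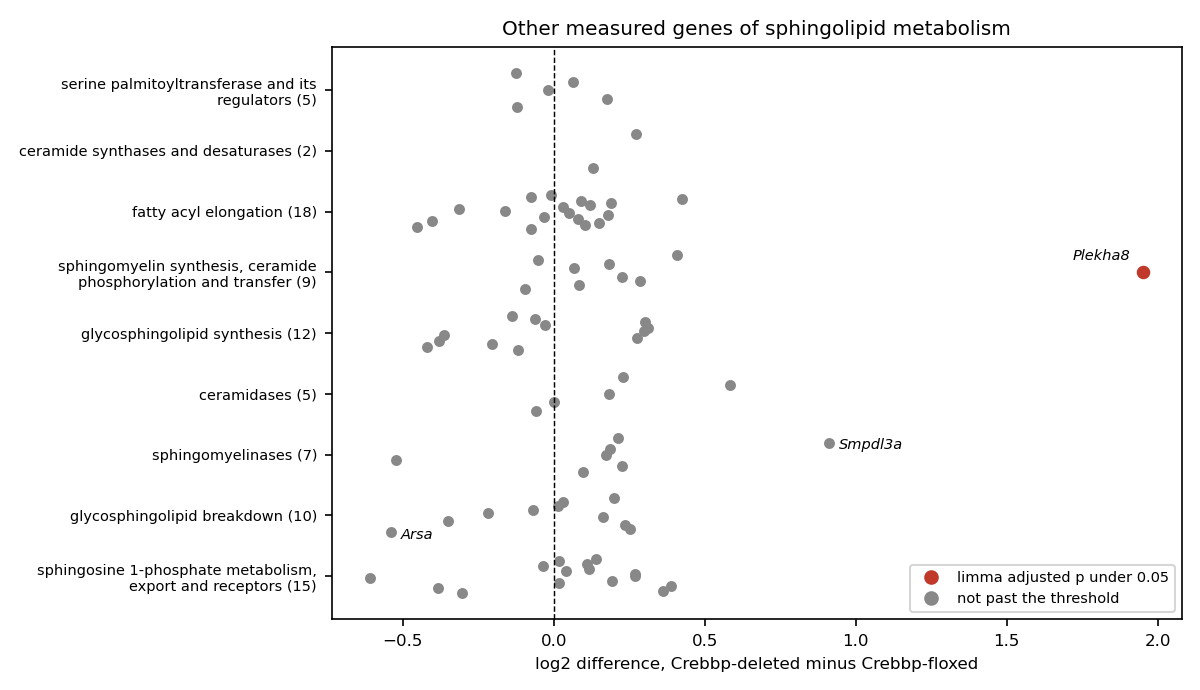
Log2 difference, Crebbp-deleted minus Crebbp-floxed (horizontal axis), of the 83 other measured genes of sphingolipid metabolism, by list with the number of genes in brackets. Plekha8 at 1.95 is the gene past the threshold, and Smpdl3a at 0.91 and Arsa at −0.54 are named for orientation.

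Over the 6 arrays, Sptlc1 followed Cers4 most closely among the members (Pearson r = 0.976), and Asah1 and Cers2 ran opposite to it (r = −0.82 and −0.78). Among 8846 other brighter genes with established symbols the highest correlations with Cers4 were those of Zbtb22 (0.999), Bin3 (0.997), Rtf1 (0.994), Ctbp1 (0.992) and Tespa1 (0.991). The lowest were those of Foxk2 (−0.997), Bnip2 (−0.996) and Akap8l (−0.994). The 6 points are 3 and 3 samples of groups that differ in Cers4, so these values are a description of likeness. Zbtb22, a zinc finger gene, had levels of 7.57, 7.58 and 7.48 in deleted samples and 8.31, 8.01 and 8.19 in floxed samples, the same order within the floxed group as Cers4.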

How the data were processed

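RNA from splenic B cells of 6 mice was hybridised to Affymetrix arrays after biotin labelling. The deposited values are 1 intensity per probe set and array. They were made by the authors with RMA, per the submitters' processing notes (no version stated there). Values from 2.96 to 17022 were read as linear, and log2 was taken here of the deposited intensities with no further normalization. Of 45101 probe sets 34958 had 1 symbol, 932 several and 9211 none in the platform annotation, and 34754 of the first were matched to RefSeq (GRCm38.p6) by Entrez ID, with 0 symbols changed. The 64 control probe sets were left out. Genes were represented by the single-symbol probe set with the highest mean, with no filter on dim genes.

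The main test was limma (version 3.58.1, under R 4.3.3), with lmFit and a moderated two-sided test and no covariates, over 18193 genes and, for single probe sets, over 45037 probe sets. Intervals are limma's at 95%. A permutation of 3 against 3 samples cannot give a p under 0.1, so none was used. Per the series text each group comes from 3 mice. No arrays were copies of each other, with median absolute log2 differences from 0.14 to 0.20 between pairs. The members, gene lists and rules were chosen with earlier results of these data known. Named were the members, pathway genes past the threshold, up to 3 more of each pathway list by p, and 5 and 3 genes most and least like Cers4. Ugt8a and A4galt were named for their dim signal. The fit was tested on simulated data. Alternatives covered normalization, a dim-gene filter, the choice of probe set, limma settings, the replicate number as a block, sex as a term and leaving out each sample. Figures used matplotlib 3.10.9 in Python 3.11.15.

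Markers of other cells were also read. The median differences were 0.10 for T cells, 0.10 for neutrophils, −0.08 for NK cells, 0.04 for dendritic cells, 0.21 for erythroid cells and −0.02 for megakaryocytes, and none of their members passed limma's test.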

Additional observations from a re-analysis of the deposited data

How the results depend on the processing

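The count of 142 genes called was 222 with trend and robust settings and 37 with sex as a term, and without each sample in turn it ran from 0 to 226. The single member called, Cers4, was lost with sex as a term (0 of 10, with 3 at an unadjusted p under 0.05), and without each sample in turn the count of members called was 0 to 1. The single pathway gene called became 2 with trend and robust settings, where limma also called Smpdl3a, and was 0 to 2 without each sample in turn. The count of 185 probe sets called was 69 with the replicate block, and 0 to 227 without each sample in turn. With the replicate block limma called 126 genes, 1 member (Cers4, adjusted p = 0.036) and 1 pathway gene. The labels do not say whether shared replicate numbers mark pairs. Deviations of same-numbered samples from their group means correlated at 0.03, 0.10 and 0.01 over genes. Those of differently numbered samples correlated from −0.117 to 0.079. Values centred within 3 samples a group cannot settle pairing, and the cause of the change under the block was not tested.

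Signs of differences that did not pass turned in a few settings. With the mean of a gene's probe sets the difference was −0.054 for Cers5, 0.045 for Sptlc2 and 0.037 for Ugcg. Without deleted sample 3 it was −0.016 for Cers5. Leaving out each sample in turn gave −0.01 to 0.403 for Cers6 and −0.565 to 0.019 for Sgms1, in both with the sign turned without floxed sample 1. Cers4 was between −1.27 and −0.99 and Plekha8 between 1.39 and 2.18 in all 15 alternatives, and for both the direction could not change on leaving out a sample, because the groups do not overlap. Limma's test did not call Sptlc1 (adjusted p from 0.077 to 0.294) or Asah1 (from 0.114 to 0.484) in any of the 15. With 3 arrays a group small differences can be missed, and dim probe sets understate folds.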
